A study of Mus musculus with 4 samples.

Results

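A set of 10 genes of glycolysis, glycogen breakdown and the creatine kinase reaction were followed in single cells of C3H10T1/2, a clonal line of mouse mesenchymal progenitors, among the 32285 genes of the deposited matrices. They were chosen by name, as enzymes of these pathways, with earlier results of these data known. Of these, 5 encode the form of an enzyme that predominates in adult skeletal muscle (Pygm, Pfkm, Eno3, Pgam2 and Ckm). The other 5 (Eno1, Pgam1, Aldoa, Ldha and Ckb) are found outside muscle too and are called ubiquitous below. That name is loose, since Aldoa and Ldha also serve muscle and Ckb is the brain type. Aldoa and Ldha have no partner among the muscle members here. The cells carried a lentiviral transgene, driven by an EF1 promoter, for epitope-tagged human histone H3.1 that was either wild type (H3WT) or carried the cancer-associated exchange of arginine 26 for cysteine (H3R26C). They were selected as pools with puromycin and kept their own H3 genes, so that the transgene was added to the cellular H3 and did not replace it. Each genotype was studied with the vehicle DMSO and with 5-azacitidine (5-Aza), an inhibitor of DNA methyltransferases, given at 3 µM for 24 h with collection on day 28. The day of collection was not given for the DMSO cells. Each of the 4 conditions was measured in 1 library, so that no difference between conditions could be tested, and all intervals below are 95% intervals that cover counting error only.

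Glycolysis converts glucose or glycogen into pyruvate and lactate, and several of its enzymes exist as alternative forms from separate genes. During muscle differentiation the ubiquitous enolase, phosphoglycerate mutase and creatine kinase genes are known to give way to paralogs that are used in myofibres. There, glycogen and phosphocreatine buffer the ATP spent in contraction. Pygm cuts glucose units from glycogen, Pfkm is the muscle subunit of phosphofructokinase and Aldoa splits fructose bisphosphate. Pgam1 and Pgam2 are phosphoglycerate mutases, Eno1 and Eno3 are enolases, Ldha interconverts pyruvate and lactate, and Ckb and Ckm are the brain-type and muscle-type cytosolic creatine kinases.

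Cells were kept at 5000 or more unique molecular identifiers (UMIs, which mark single captured RNA molecules), at 1500 or more genes and at no more than 20% mitochondrial UMIs. This kept 22049 of 39891 barcodes, with 84060490 to 110712425 UMIs per library. A cell was called sarcomere-rich where Acta1, Actc1, Mylpf, Myl1, Tnnc2 and Tnnt3, 6 sarcomere genes that are no members, made up 1% or more of its UMIs. There were 102 such cells in the H3WT 5-Aza library, or 1.70% of its 5993 kept cells (exact binomial interval 1.39% to 2.06%). The H3R26C 5-Aza library held 170, or 2.23% of 7619 (1.91% to 2.59%). Neither DMSO library held any, and a count of 0, read as up to 3 cells of the total, allows a share of up to 0.0809% of 3710 cells for H3WT and 0.0635% of 4727 for H3R26C. The cut lies on a continuum, with 36 H3WT and 57 H3R26C cells between 0.5% and 1% and 21 and 45 cells between 1% and 2%. The sarcomere-rich cells differed between the libraries in depth and in how far they lay above the cut. Their median was 15409 UMIs and a sarcomere share of 4.80% for H3WT, against 21904 UMIs and 3.15% for H3R26C. Any pair of libraries shared 24 to 58 kept barcode sequences.

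The label of muscle was checked on 14 skeletal muscle genes outside the gate, such as Myog, Des and Ttn. All 14 were higher in the sarcomere-rich than in the other cells of both 5-Aza libraries, and their summed level was 21619 CPM (counts per 1000000 UMIs) in H3WT and 21054 in H3R26C, against 608 and 546 CPM in the other cells. All 6 genes of mesenchymal progenitors, such as Ly6a and Col1a1, were lower in the sarcomere-rich cells, at summed levels of 1447 and 1360 CPM against 8375 and 8063 CPM. Of 5 genes of dividing cells, such as Mki67, all were lower, at 21.7 and 57.7 CPM against 268 and 467 CPM. The smooth muscle list was led by Acta2, which is also transcribed in young skeletal muscle, and summed to 5461 and 4005 CPM against 407 and 382 CPM. Only 2 of its 5 genes were higher in H3WT and 4 of 5 in H3R26C, where Cnn1 counted as higher on 1 UMI. In H3WT the sarcomere-rich cells had no UMI of Myh11 or Cnn1. Of 8 adipocyte genes, 7 were lower in both libraries, but the summed level in H3WT was higher, at 428 CPM against 341 CPM, through Car3 at 355 CPM against 21.8 CPM. In H3R26C the adipocyte sum was 119 CPM against 209 CPM. The endothelial and blood lists each summed to under 11 CPM in the sarcomere-rich cells, with Cldn5 and Cd52 at 0 in both. The median gene was itself lower in the sarcomere-rich cells, by 0.37 and 0.40 on the log2 scale. A count of lower genes alone therefore carries little weight.

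The 3 pairs of paralogs stand at separate places of the genome (GRCm38, GENCODE M21). Ckm lies at chr7:19404776-19422841 on the plus strand and Ckb at chr12:111669361-111672338 on the minus strand. Eno3 lies at chr11:70657202-70662513 and Eno1 at chr4:150236721-150248879, both on the plus strand. Pgam2 lies at chr11:5801640-5803733 on the minus strand and Pgam1 at chr19:41911923-41918660 on the plus strand. Of the members without a partner here, Pygm lies at chr19:6384399-6398459, Pfkm at chr15:98092589-98132451 and Ldha at chr7:46841475-46855627 on the plus strand, and Aldoa at chr7:126795234-126800751 on the minus strand. All 10 are annotated as protein-coding. The bases before the transcription start of each pair are shown because the members of a pair moved so differently in these cells. They are given from 5′ to 3′ along the gene, from the RefSeq promoter windows of GRCm38.p6, for the 250 bases before the start, and for Ckm without the 69 of them that belong to annotated exons. For Eno1 only the most upstream RefSeq window is shown. Its other windows lie inside the gene, with 245 and 250 of their 250 bases in annotated exons. Capitals mark CAGCTG, an E-box of the kind bound by MyoD and myogenin, matches to the MEF2 site and TATAAA.
Ckm, chr7:19410844-19411024, plus strand: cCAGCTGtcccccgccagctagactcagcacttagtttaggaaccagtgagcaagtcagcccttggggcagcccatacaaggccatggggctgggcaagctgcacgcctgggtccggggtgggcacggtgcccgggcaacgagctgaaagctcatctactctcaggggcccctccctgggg
Ckb, chr12:111672339-111672588, minus strand: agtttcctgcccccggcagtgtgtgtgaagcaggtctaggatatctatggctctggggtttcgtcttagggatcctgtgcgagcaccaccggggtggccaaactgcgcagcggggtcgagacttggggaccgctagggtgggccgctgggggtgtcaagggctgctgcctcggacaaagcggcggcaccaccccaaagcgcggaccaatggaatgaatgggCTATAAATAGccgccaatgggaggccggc
Eno3, chr11:70656926-70657175, plus strand: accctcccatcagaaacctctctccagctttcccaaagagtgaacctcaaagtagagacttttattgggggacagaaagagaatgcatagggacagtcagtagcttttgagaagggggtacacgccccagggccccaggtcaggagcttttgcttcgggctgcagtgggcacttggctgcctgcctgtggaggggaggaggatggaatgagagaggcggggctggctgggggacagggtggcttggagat
Eno1, chr4:150236458-150236707, plus strand: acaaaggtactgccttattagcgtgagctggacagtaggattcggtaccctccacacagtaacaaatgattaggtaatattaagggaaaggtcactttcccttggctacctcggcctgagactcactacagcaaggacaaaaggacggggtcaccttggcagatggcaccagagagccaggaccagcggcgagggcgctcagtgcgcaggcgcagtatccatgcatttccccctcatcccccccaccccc
Pgam2, chr11:5803797-5804046, minus strand: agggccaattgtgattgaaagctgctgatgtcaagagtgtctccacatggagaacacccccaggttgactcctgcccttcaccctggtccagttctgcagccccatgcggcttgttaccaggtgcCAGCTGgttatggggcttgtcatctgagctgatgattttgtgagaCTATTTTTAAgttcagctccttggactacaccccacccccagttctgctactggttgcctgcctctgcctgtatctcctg
Pgam1, chr19:41911621-41911870, plus strand: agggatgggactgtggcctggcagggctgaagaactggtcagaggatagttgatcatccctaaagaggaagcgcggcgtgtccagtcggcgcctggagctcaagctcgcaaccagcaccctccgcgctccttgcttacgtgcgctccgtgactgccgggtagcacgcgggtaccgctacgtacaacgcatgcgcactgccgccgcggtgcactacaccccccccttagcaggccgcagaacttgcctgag

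Both strands were searched in 18 windows of the 10 members and in 32851 windows of all genes. CAGCTG was found in windows of Pygm, Pgam2 and Ckm, or 3 of the 18, and in 13.0% of all windows. The MEF2 site was found in the windows of Pgam2, 80 bases before the start, and of Ckb, and in 2.92% of all windows. In Ckb the match overlaps the sequence TATAAA, which occurs in 12.4% of all windows. The Ckm window lies inside the annotated span of that gene, since the RefSeq start is downstream of the outermost annotated one. A window of this length leaves out enhancers, and a match is only a match of letters.

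Of the 10 members, 7 were at least 1 log2 unit higher in the sarcomere-rich cells than in the other cells of the same library, and they were the same 7 genes in both 5-Aza libraries. None was lower by that much. They were the 5 muscle members, Aldoa and Ckb. Log2 ratios were taken with 1 CPM added, and for comparison 9.07% of the genes with 10 CPM in either class were higher by that much in H3WT and 7.4% in H3R26C, while 24.2% and 22.2% were lower. Pygm and Pgam2 in both libraries and Ckm in H3R26C were under 10 CPM in the other cells. They passed this minimum through the sarcomere-rich cells alone, so the count of 7 carries no weight of its own. The median gene was lower in the sarcomere-rich cells by 0.37 and 0.40 on the log2 scale, so that each ratio below is larger by that amount when taken relative to the median gene.

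Ckm differed strongly between the classes. It was at 1436 CPM in the sarcomere-rich cells of H3WT and 837 CPM in those of H3R26C, at 11.4 and 5.95 CPM in the other cells of these libraries, and at 1 UMI in the whole H3WT DMSO library and 2 UMIs in H3R26C DMSO. Its log2 ratio of sarcomere-rich to other cells was 6.86 (6.75 to 6.97) and 6.91 (6.79 to 7.04). Pgam2 was at 191 and 119 CPM in the sarcomere-rich cells and at 1.44 and 1.40 CPM in the others, with 16 and 14 UMIs in the DMSO libraries. Its log2 ratios were 6.30 and 5.64. Both genes were thus far higher in the sarcomere-rich cells and nearly absent with DMSO. The other cells of the H3WT and H3R26C 5-Aza libraries still held 938 and 636 Ckm UMIs and 119 and 150 Pgam2 UMIs. Whether these are free RNA, that is, RNA of broken cells, was not tested.

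Eno3 was at 1380 and 956 CPM in the sarcomere-rich cells, but its level in the other cells differed between the libraries. After 5-Aza the H3WT value was 26.3 CPM and the H3R26C value 78.4 CPM, and the DMSO values were 6.11 CPM and 11.5 CPM. The log2 ratio was therefore 5.66 (5.58 to 5.75) in H3WT and 3.59 (3.53 to 3.65) in H3R26C. Pygm was at 81.0 and 36.5 CPM against 5.03 and 3.95 CPM, with log2 ratios of 3.77 and 2.92. Pfkm was at 328 and 324 CPM in the sarcomere-rich cells and was already present in the others at 40.2 and 49.7 CPM, with 43.1 and 54.8 CPM in the DMSO libraries. Its log2 ratios of 3.0 and 2.68 were the smallest of the muscle members.

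The ubiquitous members did not move as a group. Aldoa, whose product serves both muscle and other tissues, was at 3980 and 3744 CPM against 1300 and 1629 CPM, with log2 ratios of 1.61 and 1.20. Ldha was at 1581 and 2106 CPM against 942 and 1584 CPM, and Eno1 at 270 and 310 CPM against 202 and 199 CPM. The log2 ratios were 0.75 and 0.41 for Ldha and 0.42 and 0.64 for Eno1, so that the enolase pair differed through a gain of Eno3 UMIs and not through fewer Eno1 UMIs. Only Pgam1 was lower in the sarcomere-rich cells, at 327 CPM against 598 CPM in H3WT and 708 CPM against 1108 CPM in H3R26C. Its log2 ratios were -0.87 (-0.99 to -0.75) and -0.64 (-0.70 to -0.59), or -0.50 and -0.25 relative to the median gene.

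Ckb was higher in the sarcomere-rich cells of H3R26C, at 244 CPM (228 to 260) against 21.9 CPM in the other cells, a log2 ratio of 3.42. In H3WT it was at 39.9 CPM (31.0 to 50.6) against 18.1 CPM, a log2 ratio of 1.10. That H3WT value rested on few cells, since 3 of the 102 cells held 50 of the 68 Ckb UMIs, and without them it was 11.1 CPM (6.60 to 17.6). In H3R26C the 3 cells with most Ckb held 19.0% of 920 UMIs, and the level without them was 204 CPM. The H3WT ratio changed sign when the cells with most UMIs were left out, when cells were thinned and at a higher cut on the sarcomere share.

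**Figure D1:**
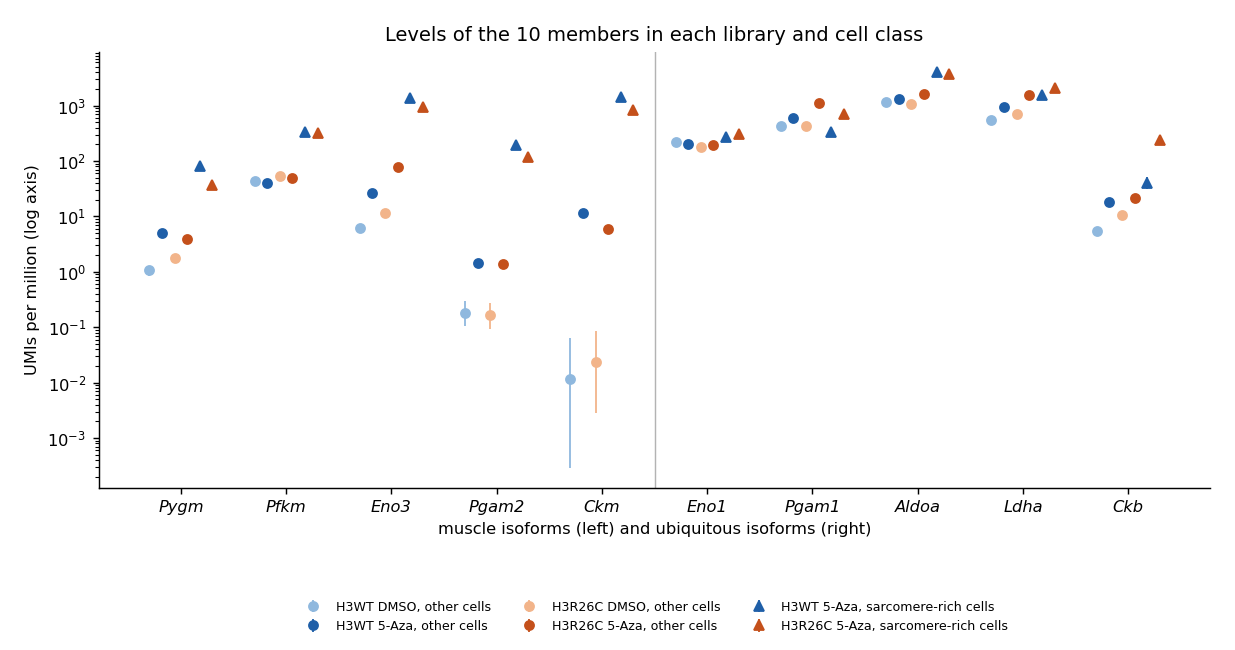
Level of each member in CPM (log axis) in the other cells (circles) of the 4 libraries and in the sarcomere-rich cells (triangles) of the 5-Aza libraries. Bars are 95% Poisson intervals of the summed counts and cover counting error only. The triangles stand far above the circles for Pgam2 and Ckm, below them within each 5-Aza library for Pgam1, and apart from each other for Ckb, at 39.9 and 244 CPM.

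The share of the muscle form was taken within each pair, as its UMIs among the UMIs of both paralogs. A UMI counts a molecule whatever its length, but genes can differ in how well they are captured, so the shares compare cells with each other and are not ratios of transcripts. In the sarcomere-rich cells of H3WT, Eno3 made up 83.7% of the enolase UMIs (82.2% to 85.0%), Pgam2 36.9% of the mutase UMIs (33.7% to 40.2%) and Ckm 97.3% of the creatine kinase UMIs (96.6% to 97.9%). The H3R26C values were 75.5% (74.2% to 76.7%), 14.4% (13.2% to 15.7%) and 77.5% (76.1% to 78.7%). Each share was lower in H3R26C. The mean of the 3 shares was 72.6% (71.4% to 73.8%) in H3WT and 55.8% (55.1% to 56.5%) in H3R26C, a difference of -16.8 percentage points between these 2 libraries (-18.2 to -15.5). RNA of other cells under the barcodes of the sarcomere-rich cells, free or from a second cell, was not taken off. Pgam1 stood at 598 CPM in the other H3WT cells and 1108 CPM in the other H3R26C cells. The part of such RNA in the difference was not tested.

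In the other cells the mean was 16.8% in H3WT and 16.6% in H3R26C before any correction for free RNA, that is, RNA of broken cells that settles in droplets. The Eno3 share was 11.5% in H3WT and 28.3% in H3R26C, the Ckm share 38.6% and 21.4%, and the Pgam2 share 0.240% and 0.126%. When the UMIs that free RNA of the make-up of the sarcomere-rich cells would carry were taken off, the mean was 4.60% in H3WT and 8.75% in H3R26C. The Eno3 share was then 7.63% and 26.2%, the Ckm share 6.16% and 0%, and the Pgam2 share 0.0139% and 0.0263%. The 0% is a floor, since the UMIs to be taken off were 131% of the Ckm UMIs counted in H3R26C, and the mean of 8.75% includes it. The direction of the Pgam2 difference turned, but on few UMIs, since 94.3% of 119 were taken off in H3WT and 79.4% of 150 in H3R26C. These values depend on the source taken. Per 100 sarcomere UMIs, the sarcomere-rich H3R26C cells held 2.16 Ckm and 0.307 Pgam2 UMIs. H3R26C barcodes under 5000 UMIs with 1% or more sarcomere UMIs held 1.65 and 0.379. The H3WT values were 3.0 and 0.401 against 2.75 and 0.344. A correction with another source was not tested. The Eno3 share of the other cells was higher in H3R26C with and without the correction, whereas it was lower in H3R26C among the sarcomere-rich cells.

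The members were then followed along the sarcomere share, in 5 bins with 20 or more cells in each 5-Aza library. The bins were cells with no UMI of the 6 genes, above 0 to under 0.1%, 0.1% to under 1%, 1% to under 5% and 5% to under 15%. A further bin at 15% or more held 1 cell and is not used. The Ckm share was 22.6%, 30.4%, 77.3%, 94.0% and 99.9% along these bins in H3WT and 9.14%, 17.5%, 43.7%, 67.3% and 87.9% in H3R26C. The Eno3 share was 8.06%, 9.49%, 35.5%, 78.6% and 87.7% in H3WT and 20.8%, 26.3%, 52.7%, 71.1% and 84.2% in H3R26C. The Pgam2 share stayed under 2% in the 3 bins below the cut and was then 25.7% and 51.3% in H3WT and 8.16% and 33.8% in H3R26C. Free RNA can add UMIs of these genes below the cut and was not separated from expression there. The Ckm and Pgam2 shares of those bins are therefore not read as expression.

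**Figure D2:**
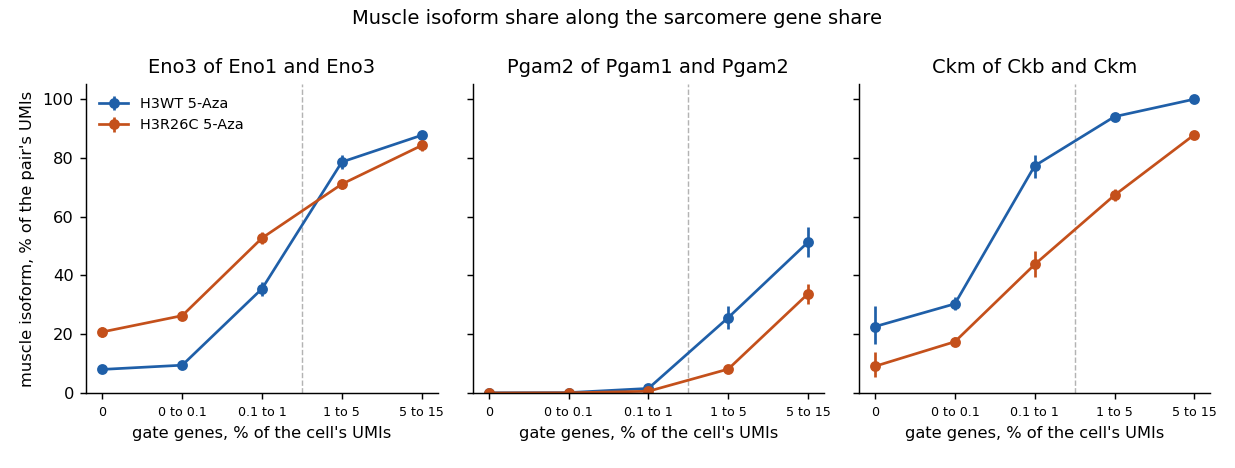
Share of the muscle form among the UMIs of its pair (percent) in bins of the sarcomere gene share for both 5-Aza libraries, with 95% binomial intervals. The dashed line marks the cut at 1%. The H3WT line lies above the H3R26C line for Ckm and Pgam2 in every bin, and the Eno3 lines cross at the cut.

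Since H3R26C cells lay lower on the sarcomere share, the libraries were compared within bins. At 5% to under 15%, with 48 H3WT and 49 H3R26C cells, Ckm was at 1797 and 1729 CPM, Pgam2 at 257 and 251 CPM, Pfkm at 420.2 and 419.6 CPM and Aldoa at 5182 and 5083 CPM. Each of these 4 members was at a similar level in both libraries there. Other members were not, with Eno3 at 1797 CPM in the H3WT cells but 1325 CPM in those of H3R26C, Pygm at 88.3 and 56.6 CPM, and Ldha at 1747 and 2384 CPM. Ckb was at 1.32 CPM in the H3WT cells, a single UMI, but at 239 CPM in those of H3R26C, and Pgam1 was at 244 and 492 CPM. The mean share in this bin was 79.6% and 68.6%, a difference of -11.0 percentage points. Depth was not matched in this bin, at a median of 12622.5 UMIs for H3WT and 20395 UMIs for H3R26C. At 1% to under 5%, with 53 and 121 cells, Ckm was at 1121 and 504 CPM, Pgam2 at 137 and 70.1 CPM and Ckb at 71.6 and 245 CPM, and the mean share was 66.1% and 48.8%. The H3WT value of Ckb in that bin rests on 67 UMIs, most of them in 3 cells.

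Pgam1 was lower in each step of the bins above the cut, from 598 CPM at above 0 to under 0.1% to 397 and 244 CPM in H3WT and from 1117 to 789 and 492 CPM in H3R26C. Ldha went the other way, from 947 to 1450 and 1747 CPM and from 1592 to 2003 and 2384 CPM. Eno1 was highest at 1% to under 5%, at 285 and 333 CPM, and was 253 and 249 CPM in the bin above.

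**Figure D3:**
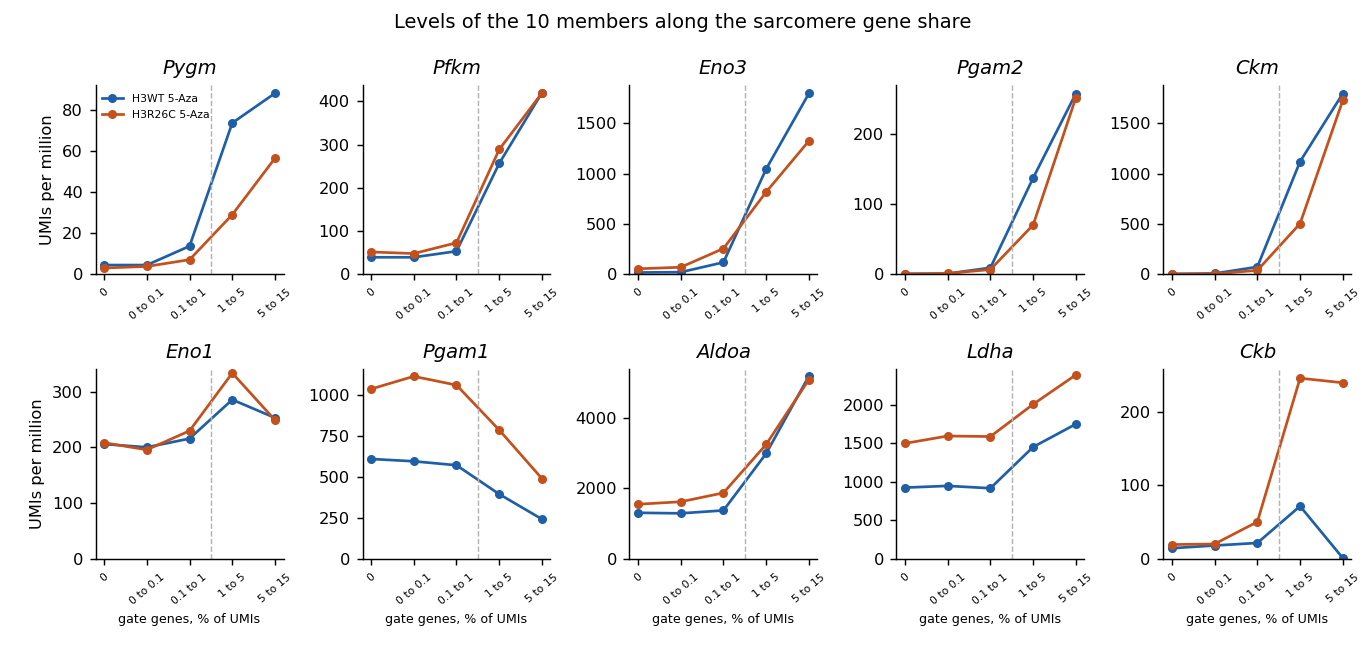
Levels of the 10 members in CPM (linear axes starting at 0) along the sarcomere share in the 5-Aza libraries, with the muscle members in the upper row and the cut marked by a dashed line. The lines of Pfkm, Pgam2, Ckm and Aldoa meet in the highest bin, whereas Ckb is at 1.32 CPM for H3WT but 239 CPM for H3R26C.

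Directly between the sarcomere-rich cells of the 2 libraries, 2 members were higher in H3R26C by 1 log2 unit or more and 1 was lower, beside 4.33% of all genes that were higher and 4.34% that were lower. The 2 higher members were Ckb, with a ratio of 6.1 (4.76 to 7.92), and Pgam1, with 2.17 (1.98 to 2.38). The lower one was Pygm, with 0.451 (0.353 to 0.575). Ckm was at a ratio of 0.583, Pgam2 at 0.622 and Eno3 at 0.693, and Pfkm at 0.988 (0.893 to 1.09). These intervals hold no variation between libraries or cells, so none of the ratios is tested against 1. Genotype, library, depth and the place of the cells on the sarcomere share cannot be told apart here.

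Single cells varied widely within each library. Among sarcomere-rich cells with 10 or more UMIs of a pair, the Eno3 share had a median of 86.7% in 79 H3WT cells and 76.9% in 135 H3R26C cells. It was over 75% in 62 H3WT cells and 71 H3R26C cells and under 25% in 1 cell of each. The Ckm share had a median of 100% in 63 H3WT cells, of which 61 were over 75%, and 89.0% in 104 H3R26C cells, of which 64 were over 75%, 34 between and 6 under 25%. The Pgam2 share had a median of 27.0% in 34 H3WT and 6.25% in 104 H3R26C cells, so that most of these cells held more Pgam1 than Pgam2 UMIs. The minimum of 10 UMIs kept 34 of 102 H3WT cells but 104 of 170 H3R26C cells for this pair. It favours cells with many UMIs of the pair, so these medians describe unequal parts of the libraries.

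To compare cells at 1 depth, each was thinned at random to 5000 UMIs. A Ckm UMI was then found in 81.4% of sarcomere-rich H3WT cells and 80.6% of H3R26C ones (90.2% and 90.0% before thinning), and an Eno3 UMI in 94.1% and 92.4%. A Ckb UMI was found in 4 of 102 H3WT cells, or 3.92% (1.08% to 9.74%), and in 64 of 170 H3R26C cells, or 37.6% (30.3% to 45.4%). Before thinning the Ckb shares were 11.8% and 54.1%, and in the other cells they were 6.69% and 9.68% after thinning. In H3R26C, 54 of the 64 cells with Ckb also had a Ckm UMI, so that both creatine kinases were found under the same barcodes. Since 80.6% of all these H3R26C cells had a Ckm UMI, this overlap is not particular to cells with Ckb. Doublets were not called, so a shared barcode need not be a single cell. The Ckb level also differed with depth among the sarcomere-rich H3R26C cells, at 311 CPM in the 85 cells at or above their median UMI count and 91.0 CPM in the 85 below it. Other members differed too, with Pgam1 at 801 and 498 CPM, Eno3 at 1066 and 705 CPM and Ldha at 2311 and 1642 CPM. Pygm and Pfkm went the other way, at 30.1 and 51.1 CPM and at 295 and 392 CPM. In H3WT, Pgam1 was at 330 and 319 CPM in the corresponding cells. The part of depth in the difference between the libraries was not tested beyond the thinned values.

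**Figure D4:**
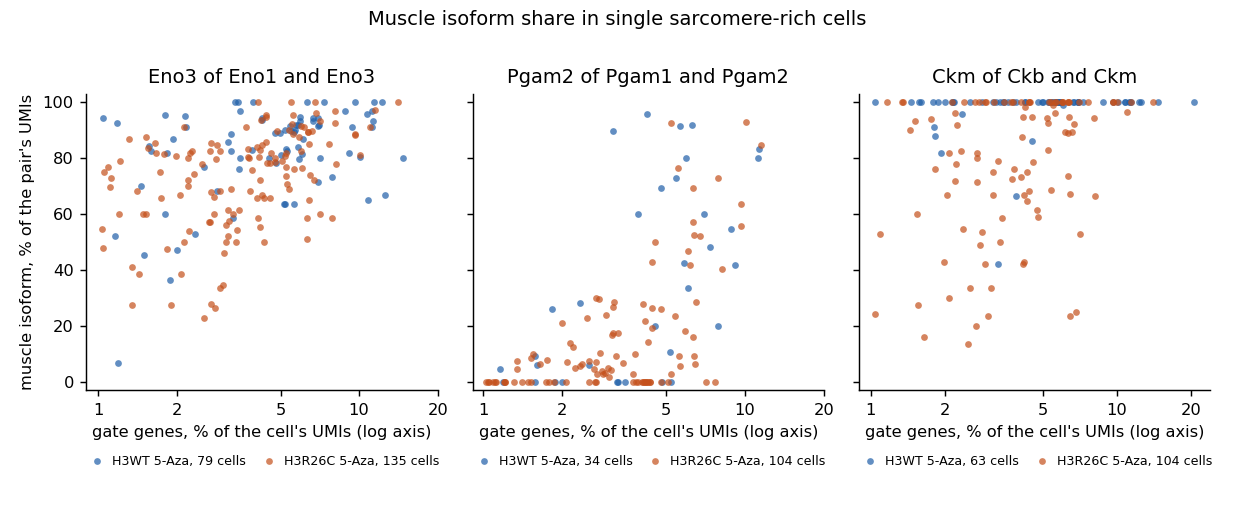
Share of the muscle form in single sarcomere-rich cells with 10 or more UMIs of the pair, against the sarcomere share of the cell (log axis), with 1 point a cell. Most H3WT cells lie at 100% for Ckm, whereas H3R26C cells spread from under 25% to 100%, and the Pgam2 share is high mainly in cells with a sarcomere share of 5% or more.

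In the other cells the question was whether the members differed with 5-Aza or genotype apart from the muscle-like cells. In H3WT, 3 of the 8 members with 10 CPM in either library were higher with 5-Aza than with DMSO by 1 log2 unit or more, beside 2.08% of all genes that were higher and 0.24% that were lower. These were Eno3 at a ratio of 4.30 (3.91 to 4.74), Ckb at 3.27 (2.95 to 3.63) and Ckm, whose ratio of 986 rests on a single DMSO UMI (177 to 38986). All 3 were under 10 CPM with DMSO and passed the minimum through the 5-Aza library alone, so their count carries no weight of its own, and Ckm in these cells is not read as expression, as given with the free RNA values. In H3R26C, 3 of 7 were higher, Eno3 at a ratio of 6.82 (6.38 to 7.30), Pgam1 at 2.56 (2.53 to 2.59) and Ldha at 2.25 (2.23 to 2.27), beside 4.87% of genes that were higher and 3.12% that were lower. Ckb was also higher in H3R26C, at a ratio of 2.07 (1.92 to 2.24), which is 0.98 on the log2 scale and was past 1 in 7 of 14 alternatives. The corresponding H3WT ratios of Pgam1 and Ldha were 1.41 and 1.72. Eno1 was nearly level, at ratios of 0.916 and 1.09.

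Between the genotypes, none of 7 members differed by 1 log2 unit with DMSO, where 1.19% of genes were higher and 0.437% lower in H3R26C. The libraries were not alike before 5-Aza, however. With DMSO, Ckb was at a ratio of 1.91 (1.71 to 2.14), from 5.54 and 10.6 CPM, and Eno3 at 1.88 (1.69 to 2.09). Both lie just under that mark. Eno1 at 0.830 and Aldoa at 0.937 were lower in H3R26C DMSO. After 5-Aza, Eno3 alone of 8 members was higher in H3R26C by that much, at a ratio of 2.98 (2.85 to 3.13), beside 3.6% of genes that were higher and 2.45% that were lower. Pgam1 followed at 1.85 and Ldha at 1.68. The DMSO and 5-Aza comparisons of a genotype share libraries with those between genotypes, so these values are not independent of each other.

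The muscle members in the other cells were set beside the free RNA that such cells can pick up. Acta1 was detected in 34.5% of the other H3WT 5-Aza cells and 38.2% of the H3R26C ones after thinning, and in 0.108% of the H3WT DMSO cells and 0 of 4727 H3R26C DMSO cells, for which the same limit of 3 cells is 0.0635%. If all UMIs of the 6 sarcomere genes in the other cells were free RNA of the make-up of the sarcomere-rich cells, that RNA would carry 89.7% of the Ckm UMIs and 94.3% of the Pgam2 UMIs of the other cells in H3WT and 131% and 79.4% in H3R26C. Whether these UMIs are free RNA was not tested, and low expression in the other cells was not separated from it. Ckm and Pgam2 in the other cells are for that reason not read as expression. For Eno3 the carried part was 37.2% in H3WT and 11.4% in H3R26C, for Pygm 11.4% and 8.65%, and for Pfkm 5.80% and 6.1%. In cells without a single UMI of the 6 genes, Eno3 stood at 18.1 CPM for H3WT and 54.7 CPM for H3R26C. Ckm was found in those cells too, at 4.29 and 1.97 CPM from 38 and 18 UMIs, so a lack of sarcomere UMIs was not taken to mark cells without free RNA.

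Eno3 was also present in cells with the myogenic regulator Myog but little sarcomere RNA. Other cells with 2 or more Myog UMIs numbered 109 in H3WT and 251 in H3R26C, and Eno3 was at 259 and 456 CPM in them, against 26.3 and 78.4 CPM in all other cells. Ckm was at 74.5 and 30.2 CPM. Per 100 UMIs of the 6 sarcomere genes, these cells held 11.0 and 19.5 Eno3 UMIs, against 7.75 and 21.6 in all other cells and 2.89 and 2.46 in the sarcomere-rich cells. The Ckm values were 3.17 and 1.30 against 3.0 and 2.16. The mean muscle share of these cells was 40.7% and 32.8%, but its parts differed in direction. The Eno3 share was higher in H3R26C, at 47.7% in H3WT and 62.4% in H3R26C. The Ckm share was 73.4% and 35.6% and the Pgam2 share 1.07% and 0.260%. Free RNA was not separated from expression in these cells, so this mean is not read as a difference in expression.

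The glycolytic members were further set beside markers of other states in the other cells, thinned to 5000 UMIs, a split made after the data were seen. With a UMI of Mki67, a gene of dividing cells, Ldha was at 1287 CPM against 846 CPM without it in H3WT 5-Aza and at 1810 against 1420 CPM in H3R26C 5-Aza. Pgam1 was at 816 against 548 CPM and at 1250 against 1022 CPM. With a UMI of Spp1, the gene of osteopontin, Pgam1 was at 669 against 461 CPM and 1096 against 624 CPM. Cells with a Spp1 UMI numbered 3022 of the 5891 other H3WT cells and 6789 of the 7449 other H3R26C cells after 5-Aza. Aldoa went the other way with Mki67, at 926 against 1307 CPM in H3WT and 1317 against 1661 CPM in H3R26C. In H3R26C, Eno3 was at 153 CPM in the 805 cells with no Ly6a UMI and 58.0 CPM in the 6644 with one. The part of these states in the differences between the libraries was not tested.

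Across the other cells, thinned to the same depth, the rank correlation of Pgam1 with Ldha was 0.585 in H3R26C 5-Aza (7449 cells) and 0.437 in H3WT 5-Aza (5891 cells), and 0.269 and 0.264 in the DMSO libraries. That of Pgam1 with Pgk1, a further glycolytic gene, was 0.599 and 0.363. Ckb was too sparse for such a value, with a UMI in under 10% of the other cells of each library after thinning. The cells of 1 library share its preparation, and these values are a description.

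The other paralogs of these enzymes were given for completeness. Of 10 listed, 6 had 10 CPM in either class. Ckmt2, the mitochondrial creatine kinase of striated muscle, was at 44.6 and 12.7 CPM in the sarcomere-rich cells against 0.496 and 0.458 CPM. Pygb, the brain form of glycogen phosphorylase, was lower, at 5.87 and 6.88 CPM against 29.3 and 21.5 CPM. The liver form of phosphofructokinase, Pfkl, was at 52.3 and 104 CPM against 127 and 161 CPM, and the neuronal enolase Eno2 at 9.40 and 19.1 CPM against 28.1 and 37.5 CPM. Pfkp and Ldhb differed by less than 0.5 on the log2 scale, and Pygl, Aldoc and Ckmt1 stayed below 1 CPM in both classes.

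Of 39 further genes of glycolysis, glucose and lactate transport, glycogen, phosphagen and pyruvate metabolism, 27 had 10 CPM in either class. Of these, 4 were higher by 1 log2 unit or more in the sarcomere-rich cells of both libraries and 2 were lower. In each library alone, 9.07% of all genes with 10 CPM in H3WT and 7.4% in H3R26C were higher by that much, and 24.2% and 22.2% were lower. The share of all genes past that mark in both libraries was not computed. The median log2 ratio of all 39 listed genes, with or without the minimum, was 0.26 in H3WT and 0.30 in H3R26C. Among the 4 were Gys1, which builds glycogen, at 109 and 146 CPM against 13.0 and 20.2 CPM, the glycogen primer gene Gyg at 270 and 133 CPM against 52.1 and 50.8 CPM, and Gatm, of creatine synthesis, at 11.7 and 21.7 CPM against 0.351 and 0.309 CPM. Of the 9 glycogen genes with the minimum, 3 were among the 4. The 2 lower genes were Pgm2, of the phosphoglucomutase family, and the mitochondrial glycerol phosphate dehydrogenase Gpd2. Gatm passed the minimum through the sarcomere-rich cells alone and Pgm2 through the other cells alone, so these counts carry no weight of their own. None of the 7 glycolysis genes with the minimum, such as Gapdh, Pkm and Tpi1, passed 1 log2 unit in both libraries. Pfkfb3 lacked the minimum in H3R26C and was lower, at log2 ratios of -1.95 and -1.57. Of 10 listed regulators, Myog, Myod1, Mef2a and Mef2c were higher in both libraries. None with the minimum was lower by 1 log2 unit in both, with Hif1a at -1.18 and -0.96. Ppargc1a lacked the minimum in H3R26C and was lower, at -2.05 and -1.51.

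**Figure D5:**
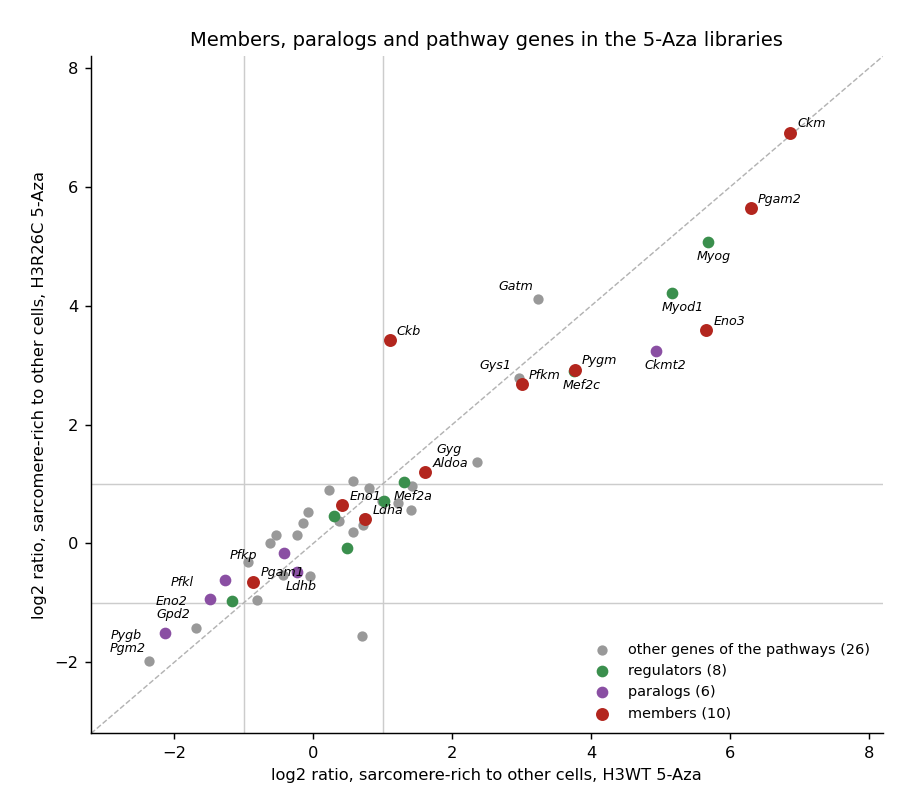
Log2 ratio of sarcomere-rich to other cells in the H3WT (x axis) and H3R26C (y axis) 5-Aza libraries for the members, their paralogs, reported pathway genes and regulators. All had 10 CPM in either class of both libraries. Grey lines mark 1 log2 unit and the dashed line equal ratios. Ckb lies far above the line of equal ratios, at 1.10 and 3.42, and Eno3 below it, at 5.66 and 3.59.

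Genes with a profile like that of the muscle members were ranked among 4386 genes over the 10 bins of both 5-Aza libraries. Closest to the mean profile of the 5 were Hspb2 (Pearson r of 0.997), Tnnt1 (0.997), Bin1 (0.996), Acta2 (0.996) and Tmem38a (0.996). Closest to Ckb were mt-Co2 (0.946), Fgfr1op2 (0.935), Ctsl (0.921), Cox8a (0.916) and Smim20 (0.904), whereas Ckb itself had a value of 0.273 with the mean of the muscle members. In H3WT the Ckb profile rests on 67 UMIs at 1% to under 5% and 1 UMI at 5% to under 15%. Of the 68 Ckb UMIs of the sarcomere-rich H3WT cells, 50 lay in 3 cells. The 10 points come from 2 libraries and share their depth, so these values only describe likeness.

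Some of these counts depend on how reads of near-identical sequences were assigned. Eno1 has an intronless copy, Eno1b, which is a row of its own and held 64.4 and 95.7 CPM in the other cells of the 5-Aza libraries and 75.8 and 124 CPM in the sarcomere-rich ones. Counted with Eno1, it would lower the mean muscle share to 71.4% in H3WT and 53.5% in H3R26C. Aldoa, Ldha and Pgam1 also have processed copies, so their levels are uncertain to that extent. Aldoa is listed under a further identifier, which held 22 to 125 UMIs per library and was not added.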

How the data were processed

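Single-cell RNA-seq libraries of 4 conditions, with 1 library each, were used. The authors aligned reads to mm10 and counted UMIs with Cell Ranger (6.1.0 in the file headers), and deposited the counts per gene and barcode as filtered matrices. Reads that map to several genes are not counted by that tool. The capture chemistry was not given in the sources used here, so levels of different genes were not compared. The submitters' processing notes also name Seurat 4.

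Cells were kept at 5000 UMIs, 1500 genes and at most 20% mitochondrial UMIs. Counts were summed over cells of a class and divided by their total UMIs (CPM). Log2 ratios used a pseudocount of 1 CPM, and genes were counted past 1 log2 unit where either group had 10 CPM. Pathway genes, paralogs and regulators needed this minimum in both 5-Aza libraries. Intervals were exact (Poisson, Clopper-Pearson or conditional binomial, 95%), and the interval of a mean share was taken from the counting error of its 3 pairs. No model across genes was fitted and no p-value was computed, since cells of a library are not replicates. Doublets were not called. As an alternative the 5% of cells with most UMIs were left out. Alternatives also changed the cell filter, the sarcomere cut and its genes, depth, weighting, scaling, pseudocount, expression minimum and free RNA. The members and lists were chosen with earlier results of these data known. All members and listed paralogs were named, and pathway genes where they passed 1 log2 unit in the same direction in both 5-Aza libraries, apart from items that are not reported here. Further genes were named by likeness of profile over the bins, among genes with 50 CPM in a bin. Regulators, markers and the glycolysis examples served as context. Sums and intervals were computed with scipy 1.17.1 and numpy 2.4.6 under Python 3.11.15, tables with pandas 2.3.3 and figures with matplotlib 3.10.9. The scripts were tested on simulated data.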

Additional observations from a re-analysis of the deposited data

Results flagged for a closer look

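Eno1 in the other cells moved in opposite directions with 5-Aza in the 2 genotypes, with a log2 ratio of 5-Aza to DMSO of -0.13 in H3WT and 0.12 in H3R26C. Each value compares 1 library with 1 library, and the difference between them was not tested.

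Barcodes under the minimum of 5000 UMIs were outside the comparisons of the report, though those of 1000 UMIs or more entered the alternative with that minimum, and many of them held sarcomere RNA after 5-Aza. There were 2197 such barcodes at 1% or more sarcomere UMIs in H3WT 5-Aza, with a median of 735 UMIs, and 1358 in H3R26C 5-Aza, with a median of 885 UMIs, against 1 and 0 in the DMSO libraries. Ckm was at 1077 CPM in those of H3WT and 647 CPM in those of H3R26C. Their mean muscle share was 70.5% and 66.2%, closer together than in the sarcomere-rich cells. The Eno3 share was 83.6% and 85.0%, higher in H3R26C, whereas the Ckm share was 99.3% and 93.1% and the Pgam2 share 28.8% and 20.5%. Whether they are cells, fragments or free RNA was not tested.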

How the results depend on the processing

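The mean muscle share of the sarcomere-rich cells was 68.7% to 79.7% in H3WT and 53.4% to 68.6% in H3R26C over 10 alternatives each, and their difference kept its sign over 12, at -18.0 to -11.0 percentage points. None of these alternatives took in barcodes under 1000 UMIs, and none took free RNA off the sarcomere-rich cells. Values are given in the order sarcomere-rich H3WT, other H3WT, sarcomere-rich H3R26C, other H3R26C and difference, as far as they moved beyond their interval. A cut of 0.5% gave 68.7%, 15.8%, 53.4%, 15.8% and -15.3. A cut of 2% gave 75.8%, 18.4%, 57.8% and 18.3%. A cut of 5% gave 79.7%, 24.1%, 68.6%, 24.3% and -11.1. Leaving Acta1 out of the gate gave 74.4%, 17.9%, 57.4% and 18.4%. A minimum of 1000 UMIs and 500 genes gave 18.6% for other H3WT, 57.9% and 17.6% for H3R26C and -15.2 for the difference, and a minimum of 10000 UMIs gave 15.8% for other H3WT. Without the 5% of cells with most UMIs the H3R26C values were 57.9% and 16.1%. Thinning gave 74.1% and 58.6% for the sarcomere-rich cells. A mean over cells gave 70.9%, 18.6% for other H3WT, 15.3% for other H3R26C and -14.6. Taking off free RNA left 4.60% and 8.75% in the other cells, the latter with the Ckm share at its floor of 0%. Among alternatives chosen after seeing the data, Eno1b counted with Eno1 gave 71.4%, 15.9%, 53.5% and 14.2%, and cells at 5% to under 15% alone gave a difference of -11.0.

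Of 954 alternative values of single members and pairs, 620 stayed within the interval, 329 moved and 5 reversed. A change of sign was counted as reversed only where the main log2 ratio was 1 or more in size. Smaller ratios also changed sign. That of Pgam2 between the other cells of the 5-Aza libraries did so in 5 of 14 alternatives. The log2 ratio of Ckb in H3WT reversed to -3.10 at a cut of 5%, to -0.92 without the cells with most UMIs and to -0.085 after thinning. With free RNA taken off, the 5-Aza to DMSO ratio reversed to -0.13 for Pgam2 in H3WT and to -0.034 for Ckm in H3R26C, where no Ckm UMI was left. The cause of the other moves was not tested. With no expression minimum, the share of genes past 1 log2 unit moved by over 1.5 times in 6 of 14 cases. No paired analysis was possible because every condition was a single library. Depth limits Ckb in H3WT, with 68 UMIs, and Ckm and Pgam2 with DMSO.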
